A study of Mus musculus with 2 samples.

Results

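The genes described here are 10 regulators of the Rb pathway, namely the pocket protein genes Rb1, Rbl1 and Rbl2, the E2f partner genes Tfdp1 and Tfdp2, the MuvB core genes Lin9, Lin37 and Lin54, and the activator genes Mybl2 and Foxm1. They were chosen by symbol from the deposited table of gene loci, where all 10 of 10 were found among 33224 symbols. The choice was made with earlier results of these data known, so it was not blind to them. Male C57BL/6 mice, WT or PPARβ-null (KO) and 4 months old by the sample labels, underwent partial hepatectomy (PH), the surgical removal of part of the liver, and the growth protocol gives 3 to 5 months and the design text 3 months for the same animals. Liver RNA from 48 hr after PH, the time given in the study's text, was sequenced as 1 library of WT and 1 of KO, so no value carries an error between mice and no test between genotypes is possible. Both groups had PH and neither is an unoperated control. The labels do not say whether a library held the RNA of 1 mouse or of a pool, nor how the null allele was made.

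In resting cells, the pocket proteins Rbl1 and Rbl2 bind E2f and Dp proteins and the MuvB core to form the DREAM complex, which keeps cell cycle genes silent. The core is built of Lin9, Lin37, Lin52, Lin54 and Rbbp4. When cells enter the cycle, the pocket proteins are phosphorylated and leave E2f target genes of the G1/S transition, and the same MuvB core joins Mybl2 to form the MMB complex, which then recruits Foxm1 to genes of G2 and mitosis. In regenerating liver, Foxm1 is known as an activator that hepatocytes need for mitosis after PH.

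Foxm1, Rbl1, Lin9 and Lin54 were the members with the largest differences, all of them lower in the KO than in the WT library. The Foxm1 row, which also holds 4933413G19Rik, was 52.7-fold, Rbl1 11.5-fold, Lin9 4.67-fold and Lin54 2.8-fold lower in KO. Rbl2, Lin37 and Rb1 differed least, with WT/KO ratios of 1.08, 1.2 and 1.35. All 10 members had a higher FPKM (a fragment count corrected for exon length and for the mapped depth of its library) in WT. Across the series this is common, since 74.8% of the 15727 genes whose mean FPKM reached 0.1 were also higher in WT. More than a 2-fold lower value in KO was found for 5 of the 10 members against 13.4% of all these genes, and a more than 2-fold higher value in KO for 0 members against 2.79%. At a 1.5-fold line the counts were 6 members lower against 26.0% of all these genes, Tfdp2 being added and Mybl2 lying just under the line, and 0 higher against 6.05%. The median log2 KO/WT of the members was -0.92, with a pseudocount of 0.1 FPKM that understates the change of low genes, and that of all these genes was -0.25.

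**Figure D1:**
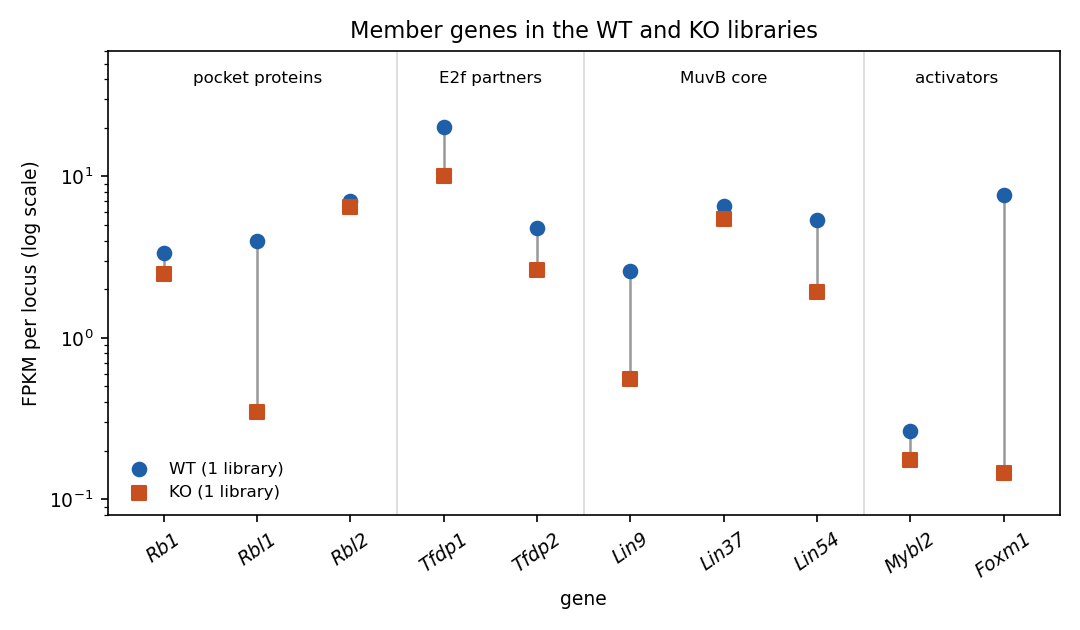
FPKM per locus (y axis, log scale) of the 10 members (x axis) in the WT library (circles) and the KO library (squares), joined by a line for each gene, with 1 library per genotype and no error bars. Foxm1, at 7.62 in WT and 0.144 in KO, has the longest line, while the symbols of Rbl2 and Lin37 nearly touch.

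FPKM were lower in KO for most genes, with a median log2 KO/WT of -0.24 in the 11723 genes whose mean FPKM reached 1, a WT/KO ratio of 1.18. The ratio of each member is therefore also given relative to that median, which is called centring here. After centring, 4 members were more than 2-fold lower in KO against 9.46% of all genes, 0 were more than 2-fold higher against 4.28%, and 9 members against 53.2% of all genes were lower by any amount. The depth was read from single-exon genes, whose low FPKM pile up at the value of 1 fragment. By this estimate, 1 FPKM on a transcript of 1 kb stood for 55.6 fragments in WT and for 56.3 in KO. The 95% intervals printed for ratios are exact conditional binomial intervals on fragments estimated in this way from the longest annotated transcript, so they cover counting error only and not the difference between mice. The targeted gene, Ppard, stood at 2.67 FPKM in WT against 2.42 in KO, so the level of its whole locus did not set the libraries apart.

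**Figure D2:**
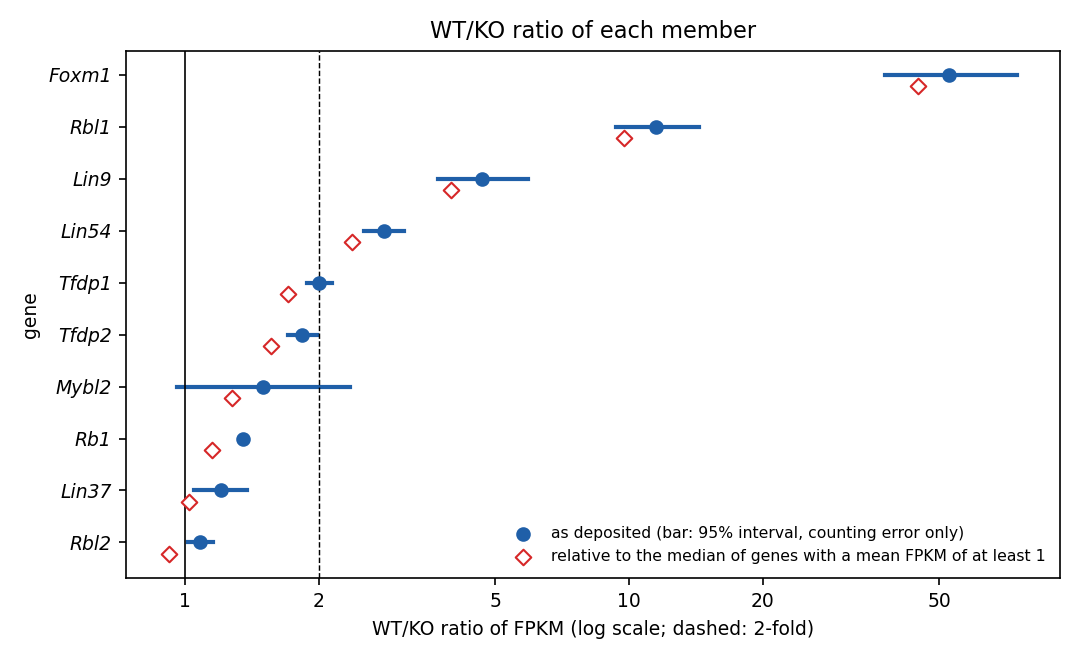
WT/KO ratio of FPKM (x axis, log scale, dashed line at 2-fold) for each member (y axis), as deposited (filled circles, bars for the 95% interval of counting error) and relative to the median of genes whose mean FPKM reached 1 (open diamonds). Foxm1, Rbl1, Lin9 and Lin54 lie to the right of the 2-fold line on both scales, and Tfdp1 (2.00 as deposited) falls to its left after centring. Rb1 has no bar because its value is the sum of several rows.

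The pocket proteins are the Rb family itself. Rb1 encodes the retinoblastoma protein, which mainly holds activating E2fs, whereas Rbl1 and Rbl2 encode the relatives that enter DREAM. Rbl1 (chromosome 2, 156971629 to 157030270 on NCBIM37, minus strand) stood at 4.00 FPKM in WT against 0.348 in KO. About 1080 and 95.3 fragments stood behind these values, and the WT/KO ratio of 11.5 had a 95% interval of 9.33 to 14.4. The ratio was larger than that of 98.3% of all genes whose mean FPKM reached 0.1. It was 9.74 after centring.

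Rbl2 (chromosome 8, 93593956 to 93647743, plus strand) is the pocket protein gene most tied to resting cells. Its FPKM was 7.01 in WT and 6.49 in KO, with about 1919 and 1798 fragments. The ratio of 1.08 had an interval of 1.01 to 1.15, and centring turned it to the other direction, at 0.917. Aktip, which lies on the opposite strand, shares 9.95% of the exon bases of Rbl2, and no source used here states that reads were counted by strand. The assembled locus of the Rbl2 row ran to 93658364, past the annotated gene end, and whether reads from there entered its value was not tested.

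Rb1 (chromosome 14, 73583480 to 73725629, minus strand) was split over 3 rows of the table. The larger rows had FPKM of 2.53 and 0.834 in WT and 1.80 and 0.606 in KO, and the smallest was listed at 0 in WT and had 0.0795 in KO. The ratios of the larger rows, 1.40 and 1.38, lay close to each other. Summed, the 3 rows came to 3.36 FPKM in WT against 2.49 in KO, giving 1.35 as deposited and 1.15 after centring. The lengths of the assembled pieces were not used here, so no fragments and no interval were estimated for Rb1. Exons of Rcbtb2 and Lpar6 on the other strand overlap 14.9% of its exon bases. The rows together reached from 73522844 to 73725629, past the annotated gene on 1 side.

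Within the pocket protein family, the composition differed between the libraries, and shares within a library do not depend on how the libraries were scaled. Rbl1 made up 27.8% of the summed FPKM of the 3 genes in WT and 3.73% in KO. The share of Rbl2 was 48.8% in WT and 69.6% in KO, while its FPKM was not higher in KO, at 7.01 and 6.49. Shares within a family depend on each other, so a smaller share of Rbl1 raises those of the others. Rb1 held 23.4% in WT and 26.7% in KO by the sum of its rows, and all shares of this family depend on that sum. Rbl2 mRNA was thus 1.75 times as abundant as Rbl1 mRNA per length in the WT library and 18.6 times as abundant in the KO library. Together the family summed to 14.4 FPKM in WT against 9.32 in KO, or 1.54-fold more in WT.

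**Figure D3:**
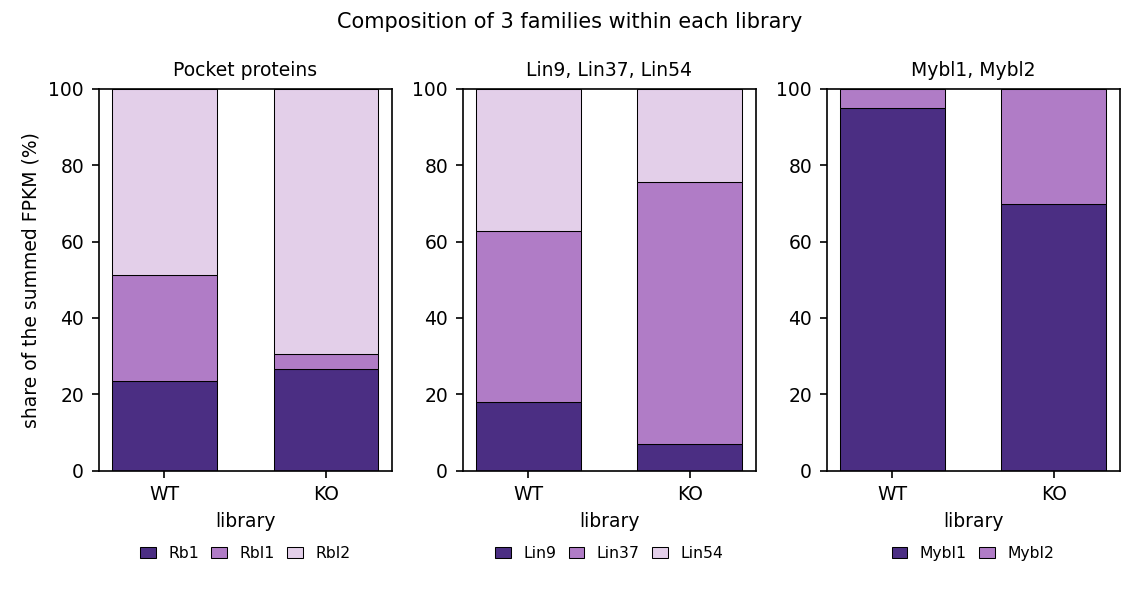
Share of the summed FPKM (y axis, percent) in the WT and the KO library (x axis) for the pocket proteins, for Lin9, Lin37 and Lin54, and for Mybl1 and Mybl2, with 1 bar per library and each gene as a block. The Rbl1 block shrinks from 27.8% in WT to 3.73% in KO and the Lin9 block from 17.9% to 7.03%.

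The sequences around the starts of these genes are shown to describe the letters that E2f and MuvB proteins are known to read. RefSeq promoter windows on GRCm38.p6, a later build than that of the table, ran from 250 bases before to 50 after a gene start and were found for 7 of the 10 members, some with more than 1 start. Rb1, Lin9 and Foxm1 had no window, so members that differed most and members that did not cannot be compared as groups. Both strands were searched for E2f letters (TTTGGCGC, TTTCCCGC, TTTGGCGG and TTTCGCGC as a set), for the cores GGCGGGAA and GCGGGAAA, for the CHR, the element bound by Lin54 (TTTGAA, and TTCGAA as a variant), and for the CCAAT box. The set, the cores, TTTGAA and TTCGAA are in capitals below in whichever orientation they occur, and the CCAAT box is not. The first window is that of Rbl1 at chr2:157204485-157204784 (minus strand), followed by those of Tfdp1 at chr8:13338501-13338800 (plus strand), Lin54 at chr5:100498524-100498823 (minus strand) and Rbl2 at chr8:91069807-91070106 (plus strand).
Rbl1: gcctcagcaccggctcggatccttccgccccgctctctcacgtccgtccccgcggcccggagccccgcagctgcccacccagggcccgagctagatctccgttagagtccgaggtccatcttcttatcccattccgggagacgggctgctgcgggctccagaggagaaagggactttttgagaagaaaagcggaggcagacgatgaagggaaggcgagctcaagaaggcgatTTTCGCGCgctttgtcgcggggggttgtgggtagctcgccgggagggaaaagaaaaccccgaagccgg
Tfdp1: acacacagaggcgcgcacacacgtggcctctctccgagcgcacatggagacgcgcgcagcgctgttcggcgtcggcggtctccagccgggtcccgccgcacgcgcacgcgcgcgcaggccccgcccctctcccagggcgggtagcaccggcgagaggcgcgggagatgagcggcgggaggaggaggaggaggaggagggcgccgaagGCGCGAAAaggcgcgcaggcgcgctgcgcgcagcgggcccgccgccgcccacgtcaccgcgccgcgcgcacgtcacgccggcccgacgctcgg
Lin54: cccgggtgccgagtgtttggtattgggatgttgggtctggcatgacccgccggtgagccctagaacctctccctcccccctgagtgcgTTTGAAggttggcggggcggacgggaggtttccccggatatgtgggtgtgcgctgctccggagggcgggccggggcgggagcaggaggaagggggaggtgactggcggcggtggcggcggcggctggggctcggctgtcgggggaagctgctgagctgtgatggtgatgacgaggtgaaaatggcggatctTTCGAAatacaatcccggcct
Rbl2: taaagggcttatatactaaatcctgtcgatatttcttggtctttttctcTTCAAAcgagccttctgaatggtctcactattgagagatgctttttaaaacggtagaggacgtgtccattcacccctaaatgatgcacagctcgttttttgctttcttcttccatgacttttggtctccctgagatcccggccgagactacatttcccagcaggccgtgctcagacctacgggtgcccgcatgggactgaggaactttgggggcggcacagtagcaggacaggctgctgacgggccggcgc

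A member of the E2f set, TTTCGCGC, occurred in the windows of Rbl1, where its first base lies at -18 from the start, and of Tfdp1, where it lies on the other strand at -43. This set was found for 2 of the 7 members with a window, and for 2.70% of the 27025 symbols in the table of windows. Neither core occurred in a member's window, and they were found for 2.52% (GGCGGGAA) and 1.24% (GCGGGAAA) of the symbols. TTTGAA occurred at -162 in Lin54, at -197 in Lin37 and at -201, on the other strand, in Rbl2, and in 20.2% of the symbols. A second annotated start of Lin54 had it at 41. TTCGAA, which reads the same on both strands, occurred at 30 in Lin54 and in 1.80% of the symbols. Lin37 held 2 CCAAT boxes and Lin54 held 1, against 41.1% of the symbols with any. The windows of Mybl2 and Tfdp2 held none of the letters searched. Only exact matches were counted, so a window without a match may still hold a site that differs in a letter. A match describes the letters and is not a measured binding site.

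Tfdp1 and Tfdp2 encode the Dp proteins that pair with E2fs to bind DNA. Tfdp1 (chromosome 8, 13338751 to 13378395, plus strand) was the most abundant member in both libraries, at 20.2 FPKM in WT against 10.1 in KO. With about 2754 and 1393 fragments, the ratio was 2.00 with an interval of 1.88 to 2.14, so it lay at the 2-fold line and was 1.70 after centring. Tfdp2 (chromosome 9, 96096694 to 96224065, plus strand) stood at 4.8 FPKM in WT against 2.61 in KO, giving a ratio of 1.84 (interval 1.70 to 1.98) and 1.56 after centring. The partners kept nearly the same proportion, Tfdp1 holding 80.8% of their summed FPKM in WT and 79.4% in KO. Of the 10 members, Tfdp1 was the nearest above the 2-fold line and Tfdp2 the nearest below it.

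The MuvB core is the part shared by the repressing DREAM and the activating MMB complex, and its genes did not move alike. Lin9, which encodes a subunit that binds Mybl2 in MMB (chromosome 1, 182571498 to 182620816, plus strand), stood at 2.60 FPKM in WT against 0.556 in KO, with about 424 and 92 fragments. Its ratio was 4.67 (interval 3.72 to 5.91) as deposited and 3.97 after centring. Lin54, the DNA-binding subunit (chromosome 5, 100870937 to 100929658, minus strand), stood at 5.39 FPKM in WT against 1.92 in KO. Its ratio was 2.80 (interval 2.53 to 3.11), and 2.38 after centring.

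Lin37, a subunit that DREAM needs for repression (chromosome 7, 31340460 to 31344857, minus strand), stood at 6.52 FPKM in WT against 5.43 in KO. The ratio of 1.2 had an interval of 1.05 to 1.37 and came to 1.02 after centring. Exons of Hspb6 on the other strand share 0.216% of the exon bases of Lin37. The assembled locus of the Lin37 row ran from 31324076 to 31344857, well past the annotated gene. Whether reads from outside Lin37 entered its value was not tested. Among the 3 genes, Lin9 held 17.9% of the summed FPKM in WT and 7.03% in KO, Lin54 held 37.1% and 24.3%, and Lin37 held 44.9% and 68.7%. Lin37 mRNA was 2.51 times as abundant as Lin9 mRNA in WT and 9.76 times as abundant in KO.

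The remaining core subunits were not members and lay close to Lin37. Lin52 stood at 5.03 FPKM in WT against 3.68 in KO, giving a ratio of 1.37 (interval 1.21 to 1.55). Rbbp4, a histone-binding protein of many chromatin complexes, stood at 48.7 FPKM in WT against 36.7 in KO, giving a ratio of 1.32 (interval 1.29 to 1.36). Dyrk1a, the kinase whose action on Lin52 promotes DREAM assembly, had an FPKM of 6.35 and 5.55, a ratio of 1.14 (interval 1.07 to 1.22), which centring turned to 0.971. Of the 5 core genes, Lin9 and Lin54 were thus the only ones more than 2-fold lower in KO.

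Foxm1 encodes a forkhead transcription factor of G2 and mitosis (chromosome 6, 128312985 to 128325911, plus strand), and its row stood at 7.62 FPKM in WT against 0.144 in KO. About 1862 and 35.8 fragments gave a ratio of 52.7 with an interval of 37.7 to 75, and 44.7 after centring. The ratio exceeded that of 99.1% of all genes whose mean FPKM reached 0.1. The row of Foxm1 also names 4933413G19Rik, which reaches further downstream on the same strand and shares 2.62% of the exon bases of Foxm1. The value therefore belongs to both genes, and the fragments of each cannot be told apart.

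Mybl2, or B-Myb, is the Myb protein of MMB (chromosome 2, 162880423 to 162910424, plus strand). It was the lowest member in WT, with an FPKM of 0.263, and had 0.176 in KO. With about 53.4 and 36.1 fragments, its ratio of 1.5 had an interval of 0.958 to 2.34, so a difference was not detectable at this depth. The ratio was 1.27 after centring. The FPKM of the joint Foxm1 row was 28.9 times that of Mybl2 in WT and 0.823 times that in KO. Mybl1, or A-Myb, a relative best known from germ cells, was not a member and stood at 5.16 FPKM in WT against 0.409 in KO, giving a ratio of 12.6 (interval 10.4 to 15.3). Mybl1 made up 95.1% of the summed FPKM of both Myb genes in WT and 70.0% in KO.

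**Figure D4:**
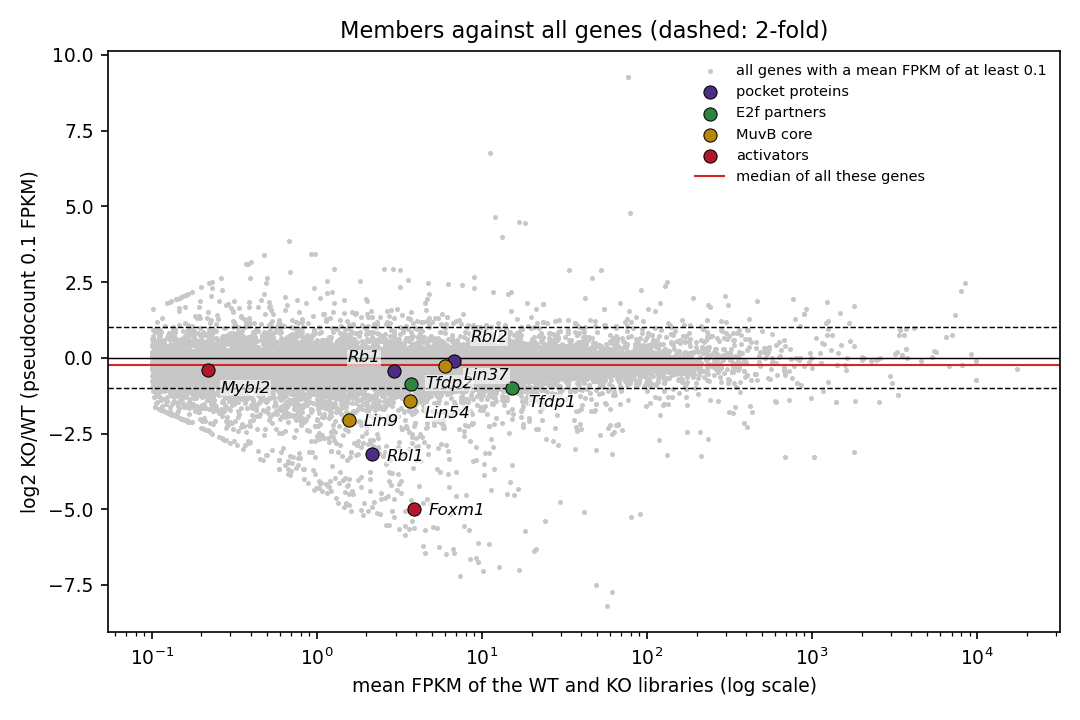
Log2 KO/WT with a pseudocount of 0.1 FPKM (y axis) against the mean FPKM of both libraries (x axis, log scale) for the 15727 genes whose mean reached 0.1 (grey points) and the 10 members (coloured by role), with dashed lines at 2-fold and a red line at the median of all these genes. Foxm1, Rbl1, Lin9 and Lin54 lie below the lower dashed line, while Rbl2, Lin37, Rb1 and Mybl2 lie near the red line.

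By level, the members' median FPKM was 5.09 in WT and 2.20 in KO. In WT, 9 of the 10 had an FPKM of at least 1, and in KO 6 of the 10. The share of all genes at that level in each library was not computed, so these counts are a description only. The order from high to low in WT was Tfdp1, Foxm1, Rbl2, Lin37, Lin54, Tfdp2, Rbl1, Rb1, Lin9 and Mybl2. In KO it was Tfdp1, Rbl2, Lin37, Tfdp2, Rb1, Lin54, Lin9, Rbl1, Mybl2 and Foxm1, so the joint row of Foxm1 went from the second place to the last. Rb1 was placed by the sum of its rows, which is not the FPKM of a whole gene. Its largest row alone, at 2.53 in WT and 1.80 in KO, would lie below Lin9 in WT and below Lin54 in KO. With 1 library per genotype, whether neighbours in either order differ beyond the spread between mice cannot be said.

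Genes that act with the members were described by lists drawn up by role, with earlier results of these data known. The E2fs are DNA-binding factors, only some of which are partners of the pocket proteins. Of the 8 E2f genes, 4 were more than 2-fold lower in KO (background 13.4%). These 4 were E2f1, E2f2, E2f7 and E2f8, with ratios of 6.80, 3.76, 6.43 and 14.6. The paper describes E2f7 and E2f8 as atypical members that bind promoters without a Dp protein. The remaining E2fs lay nearer to 1. E2f4, the usual E2f of DREAM, stood at 12.8 FPKM in WT against 12.3 in KO, giving a ratio of 1.05 (interval 0.971 to 1.13). Its row also names Elmo3, so its interval has the same limit as that of the Foxm1 row. E2f5, its close relative, had 3.57 and 2.93, a ratio of 1.22 (interval 1.04 to 1.43). E2f6, a repressor that works without pocket proteins, had 8.11 and 7.86, a ratio of 1.03 (interval 0.947 to 1.12), and E2f3 had 3.51 and 2.71, a ratio of 1.29 (interval 1.17 to 1.43). Centring turned E2f4 and E2f6 to the other direction, at 0.888 and 0.875. E2f4 mRNA was 1.84 times as abundant as E2f1 mRNA in WT and 11.9 times as abundant in KO.

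Of 13 corepressors and partners of Rb, 2 were more than 2-fold lower in KO, a share near the background of 13.4% of all genes, and 0 more than 2-fold higher (background 2.79%). Their median log2 KO/WT was -0.38, against -0.25 for all genes. Suv39h1, a histone methyltransferase of heterochromatin, stood at 6.50 FPKM in WT against 1.28 in KO, giving a WT/KO ratio of 5.07 (interval 4.39 to 5.87), and Rbbp8, a DNA end resection factor, 6.01 and 2.66, with a ratio of 2.26 (interval 2.03 to 2.51). The histone deacetylase genes Hdac1, Hdac2 and Hdac3 had ratios of 1.83, 1.37 and 1.41, and Rbbp7 had 1.88. Sin3a, Sin3b, Arid4a and Arid4b, scaffolds and partners of Sin3 complexes, had ratios of 1.31, 1.11, 0.994 and 1.22, and centring turned Sin3b to the other direction, at 0.945. Kdm5a, a histone demethylase, had 0.967, and the remodelling ATPases Smarca2 and Smarca4 had 0.928 and 1.25.

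Among 11 genes of the kinases and phosphatases that set the phosphorylation of pocket proteins, 3 were more than 2-fold lower in KO (background 13.4%) and 0 more than 2-fold higher (background 2.79%). They were Ccne1 (ratio 6.12, interval 5.08 to 7.40), Ccne2 (18.2, interval 13.8 to 24.9) and Cdk2 (2.46, interval 2.20 to 2.76), which act together late in G1. The D-type cyclins and their kinases, which act first, were within 2-fold. Ccnd1 stood at 21.3 FPKM in WT against 23.5 in KO, giving a ratio of 0.909, Ccnd2 a ratio of 1.67, Ccnd3 1.38, Cdk4 1.13 and Cdk6 1.49. After centring, Cdk4 was at 0.956, in the other direction. The catalytic subunits of protein phosphatase type 1, Ppp1ca, Ppp1cb and Ppp1cc, had ratios of 1.29, 1.42 and 1.38.

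Of 7 Cdk inhibitor genes, 4 were more than 2-fold lower in KO (background 13.4%) and 0 more than 2-fold higher (background 2.79%). For 2 of these 4, Cdkn1c and Cdkn2b, the counting interval reached below 2-fold. Cdkn2c stood at 11.6 FPKM in WT against 1.05 in KO, giving a ratio of 11 (interval 9.32 to 13.2), and Cdkn2d had 3.67 and 0.425, a ratio of 8.62 (interval 5.98 to 13.2). Cdkn1c and Cdkn2b were low, with FPKM of 0.361 and 0.194 in WT and 0.145 and 0.0222 in KO, giving a ratio of 2.5 (interval 1.35 to 4.73) for Cdkn1c. The Cdkn2b value in KO rested on about 1.74 fragments, so its ratio of 8.74 had an interval of 1.77 to 68.5. Cdkn1b had a ratio of 1.84 and Cdkn2a, at 0.145 and 0.0733, one of 1.98 (interval 0.543 to 9.19). Cdkn1a, the inhibitor best known as a p53 target, was higher in KO, at 33.5 FPKM in WT against 40.4 in KO, which put WT/KO at 0.829 (0.793 to 0.867).

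Genes listed as known targets of these regulators were lower in KO in nearly every case. Both target lists were drawn up with earlier results of these data known, and the paper had already reported suppressed E2f targets in KO. The counts for G1/S and G2/M targets are therefore a description only. Whether the members had a part in the values of their targets was not tested. Of the 34 E2f target genes of G1/S found among 36 listed (Cdt1 and Gins2 were not analysed here), 32 were more than 2-fold lower in KO (background 13.4%) and 0 more than 2-fold higher (background 2.79%). Their median log2 KO/WT was -2.63, against -0.25 for all genes. Pcna, the sliding clamp of DNA polymerases, stood at 66.8 FPKM in WT against 13 in KO. Rrm2, a subunit of ribonucleotide reductase, had a ratio of 46.3, Uhrf1, which maintains DNA methylation, 40.2, and Cdc6, a licensing factor of replication origins, 32.4. Mcm10, a replication factor, was the exception that was higher in KO, at 14.5 FPKM in WT against 18.9 in KO.

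Of the 38 MMB and Foxm1 target genes of G2/M, 37 were more than 2-fold lower in KO (background 13.4%) and 0 more than 2-fold higher (background 2.79%). The median log2 KO/WT was -5.14. It was -5.22 with the KO value of the 2 genes listed at 0 set to 3 fragments and, for these 2 alone, no pseudocount. Cdk1, the mitotic kinase, stood at 41.9 FPKM in WT against 0.434 in KO, giving a ratio of 96.6 (interval 76.8 to 125). Ckap2l, a spindle protein, had 8.76 and 0.0194, the latter from about 3.43 fragments, a ratio of 451 (interval 176 to 2501). Bub1, a kinase of the spindle checkpoint, had an FPKM of 2.68 in WT and Melk, a kinase of dividing cells, 1.94, and both were listed at 0 in KO. Cks2, a small subunit bound to Cdk1, had 35.2 and 12.6, a ratio of 2.80. Gtse1, an exception at 33.4 in WT and 38.2 in KO, shares its row with Ttc38, so its own level is not known from this table.

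**Figure D5:**
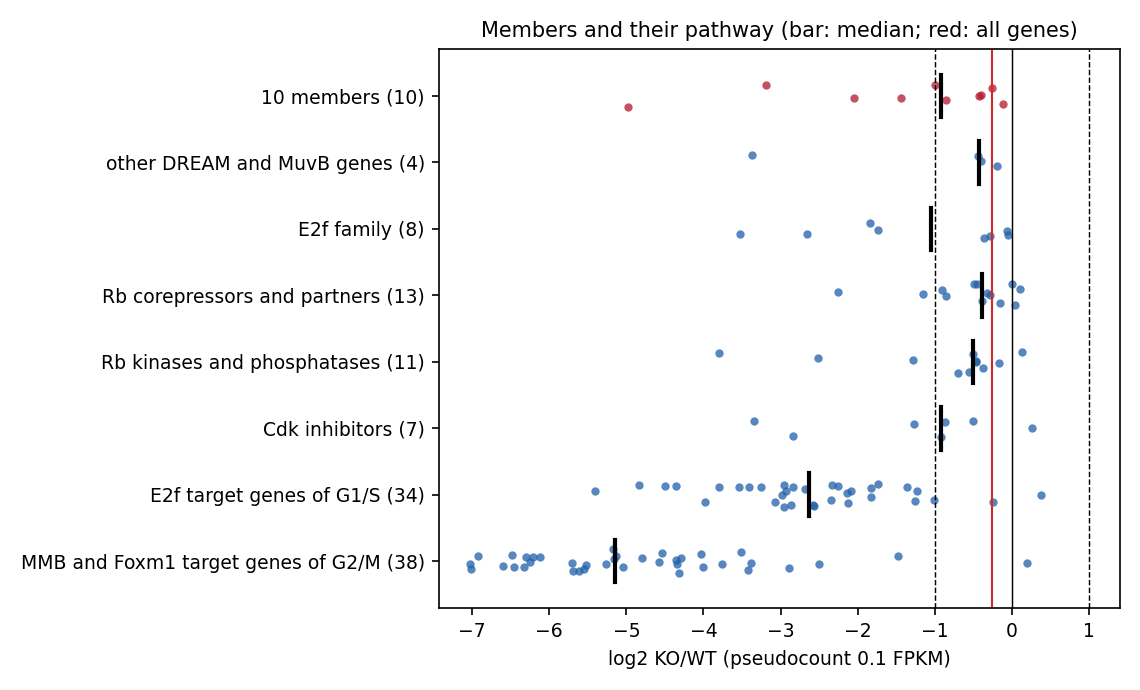
Log2 KO/WT with a pseudocount of 0.1 FPKM (x axis) of each gene (points) in the 10 members and in 7 lists of their partners and targets (y axis, number of genes in parentheses), with a black bar at the median of each list, a red line at the median of all genes and dashed lines at 2-fold. Medians are -0.92 for the members, -2.63 for the E2f targets of G1/S and -5.14 for the MMB and Foxm1 targets of G2/M.

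Both libraries carried the hepatocyte markers searched, 8 of 8, with a summed FPKM of 17842 in WT and 20476 in KO. Of these 8, 2 were higher in WT and 6 in KO. Their WT/KO ratios ran from 0.448 for Cyp2e1 to 2.15 for Cps1. In these bulk samples, fewer cells of a type and less RNA per cell cannot be told apart. Summed levels of markers of other cells were lower in KO, at 60.8 and 38.5 for 8 macrophage genes, 62.0 and 46.9 for 8 endothelial genes, 43.5 and 18.3 for 8 stellate cell genes, and 34.2 and 29.8 for 8 cholangiocyte genes. The 7 erythroid genes found of 8 summed to 296 in WT and 252 in KO, and after centring the erythroid and cholangiocyte sums were slightly higher in KO. Neutrophil markers summed to 14.8 and 7.89, with Ly6g, Camp and Mpo listed at 0 in both libraries, and lymphocyte markers to 1.61 and 0.938. The largest of these WT/KO ratios of sums was 2.38, for stellate cells. Single markers went further, with ratios of 4.88 for Col1a1 and 4.57 for Col3a1, collagens of stellate cells. Krt7 and Krt19, keratins of cholangiocytes, had 3.11 and 3.08. Markers higher in KO included Marco of macrophages, at 0.893, and Alas2 of erythroid cells, at 0.551. Whether other cell types had a part in the members' values was not tested.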

How the data were processed

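Liver RNA from 1 WT and 1 KO library was sequenced by Illumina after TruSeq preparation. According to the study's methods and the submitters' processing notes, the authors aligned reads with TopHat 2.0.0 to NCBI37 (mm9), assembled transcripts with Cufflinks 1.3.0 and had Cuffdiff estimate FPKM for each locus. The deposited values are FPKM per locus as the authors made them, and whether quartile normalization was applied is not given in the sources used here. The methods name single end reads and the labels paired end reads. The table also holds the authors' own comparison of the libraries (a fold change, a test statistic and its probabilities), which was not used.

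Of 38016 loci, 2302 had no symbol, 850 named several, each of which received the joint value, and 21 marked HIDATA were left out. Rows sharing a symbol were summed. The work used matplotlib 3.10.9, scipy 1.17.1, pandas 2.3.3 and numpy 2.4.6 under Python 3.11.15. Counts and medians cover genes whose mean FPKM reached 0.1, and log2 values add 0.1 FPKM. Coordinates of genes are from GENCODE vM1 on NCBIM37, which held 32451 of the 33224 symbols. The value of 1 fragment was the median of 72 (WT) and 70 (KO) single-exon genes of at least 600 nt within 30% of the commonest low value. The calculations were tested on simulated libraries.

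The named genes are all members, all genes of lists with up to 13 genes, and, in the 2 longer lists, the 3 of highest mean FPKM and up to 3 of largest WT/KO fold either way among genes that reached 1 FPKM in a library, with Ppard added as the targeted gene. The members and lists were chosen with earlier results of these data known. No test across samples was run with 1 library per genotype. Alternatives covered scaling, the filter, the pseudocount, the fold line, and the treatment of rows, joint loci and status. Protein sequences were not used here.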

Additional observations from a re-analysis of the deposited data

How the results depend on the processing

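No paired analysis was possible because the genotypes have 1 library each and nothing pairs them, and for the same reason none could be left out. The number of members more than 2-fold lower in KO was 4 or 5 under every alternative that kept the 2-fold line, being 4 under each of the 3 scalings, where Tfdp1 fell below the line, and without joint loci, which removed Foxm1. With a 1.5-fold line, 6 members were lower by more than that. The number more than 2-fold higher was 0 throughout. The members' median log2 KO/WT ranged from -0.99 to -0.65.

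Scaling moved several WT/KO ratios beyond counting error. After centring on the median, and with equal upper quartiles, they were 1.02 and 0.993 for Lin37, 0.917 and 0.893 for Rbl2, 2.38 and 2.32 for Lin54, 1.70 and 1.65 for Tfdp1, and 1.56 and 1.52 for Tfdp2. Rbl2 thus changed direction under both, and Lin37 with equal upper quartiles. With equal upper quartiles the median of all genes moved from -0.25 to 0.00937.

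Medians of lists moved by more than 1.5-fold in these cases, for which the cause was not tested beyond the genes left out. The E2f family came to -0.36 with only genes whose mean FPKM reached 1, -1.74 without joint loci and -0.41 with a pseudocount of 1 FPKM. Cdk inhibitors came to -1.86 with only genes whose mean FPKM reached 1 and -0.25 with a pseudocount of 1 FPKM. With that pseudocount the G1/S targets came to -2.02 and the G2/M targets to -2.94, while 0.01 FPKM gave -6.54 for the latter. No value reversed among the ratios over 2-fold or the medians, and the other 158 recomputed values stayed within these limits. Without joint loci Foxm1 had no value, and with only genes whose mean FPKM reached 1 Mybl2 had none. Among the 9 members with an interval, only that of Mybl2 included 1, and Cdkn2a and Cdkn2b rested on fewer fragments still. These intervals belong to the ratios as deposited, and the share of all genes whose interval excludes 1 was not computed. An interval without 1 is therefore not read as a difference of a member from other genes. Centring put Lin37 at 1.02 and Rbl2 at 0.917.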
